A study of Mus musculus with 12 samples.

Results

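The genes described here are 10 of the 24728 genes counted in sorted mouse bone-marrow derived macrophages. They are the receptors, enzymes and adenosine sensors of extracellular purine signalling, and they were taken from the count table by symbol. P2rx4 and P2rx7 encode ATP-gated channels, and P2ry2, P2ry6 and P2ry14 encode G protein-coupled nucleotide receptors. Entpd1 (CD39) and Nt5e (CD73) encode the surface enzymes that turn ATP into adenosine, and Adora2a, Adora2b and Adora3 encode adenosine receptors. P2ry12 and P2ry13, the ADP receptors that mark microglia, are not among the 10. The macrophages carried dTomato, a red fluorescent protein, and were sorted from ex vivo assays before polyadenylated RNA was read. Tumor material, in the groups named for it, was dissociated brain tumor. Besides the group named Control, macrophages were taken from assays named Myelin Alone, from Tumor without Myelin, and from Full Tumor. These 4 groups have 3 libraries each, numbered mn 957, 958 and 016. No label tells what "mn" means, how long the exposure was, what the Control cells received, how dTomato was driven, or which tumor model, mouse strain and age supplied the material. Libraries of a group are not tied to separate animals, so p-values reflect variation among these libraries, which may be technical.

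Cells release ATP and UTP when they are stressed or damaged. ATP opens P2X channels, and at high levels P2X7 opening leads to potassium loss and inflammasome activation in macrophages, while P2Y2 and P2Y6 couple to phospholipase C and respond to ATP or UTP and to UDP. CD39 removes phosphates from ATP and ADP, CD73 makes adenosine from AMP, and adenosine acting on the receptors encoded by Adora2a and Adora2b raises cyclic AMP and dampens inflammatory responses. Macrophages in brain tumors are known to carry CD39.

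Libraries held 17071673 to 21689624 counts, and 3 counts, the most that a count of 0 allows, correspond to 0.142 to 0.182 CPM (read counts scaled to a common library size with edgeR's TMM factors). Such floors cover counting error only. Markers of the labelled cell type were present: 8 of 8 macrophage markers were detected in every group, and Adgre1, which encodes F4/80, lay at 1010 to 2120 CPM. Marker lists of other cell types were lower but not all near 0. Neutrophil markers summed to 44.6 to 287 CPM, the highest in Control 016, dendritic cell markers to 81.1 to 220, oligodendrocyte markers to 111 to 161 and platelet markers to 21.6 to 140. Lists of T and NK cells, B cells, endothelium, fibroblasts and pericytes, astrocytes, tumor progenitors and erythroid cells each summed to at most 22.9 CPM in every library. In bulk libraries, fewer cells of a type and less RNA per cell cannot be told apart.

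Per exon length (RPKM, CPM divided by exon length in kilobases), 3 of the 10 genes stood above the others. P2ry6 had the highest mean level at 116 ± 17.7 RPKM (SD, n = 12 libraries of all groups), followed by P2rx4 at 69.1 ± 14.5 and Entpd1 at 55.1 ± 12.3. P2ry6 exceeded P2rx4 in 12 of 12 libraries and their ranges did not overlap, whereas P2rx4 exceeded Entpd1 in 10 of 12 and their ranges did. The next levels were 5.93 ± 1.54 RPKM for P2rx7, 5.32 ± 1.83 for P2ry2, 3.75 ± 2.08 for Adora2b and 1.36 ± 0.64 for P2ry14, and the ranges of these neighbours overlapped. Adora3 (0.202 ± 0.118 RPKM), Adora2a (0.121 ± 0.139) and Nt5e (0.0453 ± 0.0609) lay lowest, overlapped with each other and lay below P2ry14 in every library. P2ry6, P2rx4 and Entpd1 had 3603 to 11442 counts per library, and Nt5e, Adora2a and Adora3 had 0 to 27.

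**Figure D1:**
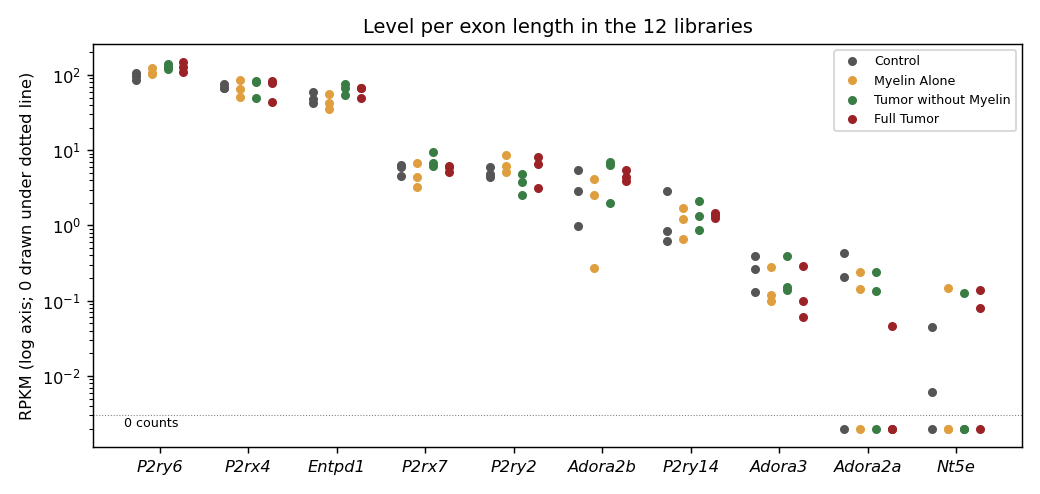
Level of each of the 10 genes in RPKM on a log axis, ordered by mean, with 1 point per library coloured by group; libraries with 0 counts are drawn under the dotted line. P2ry6, P2rx4 and Entpd1 sit above the other 7 genes, and Adora2a and Nt5e are at 0 counts in 5 and 6 of the 12 libraries.

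Of the 10 genes, Entpd1 alone passed the adjusted threshold in a comparison over all 12 libraries, and only when the mn number was taken into account. With group as the only term, edgeR's quasi-likelihood test called 0 of the 10 genes in each of 7 comparisons: 4 between groups, the pooled effect of tumor material (Full Tumor and Tumor without Myelin against Myelin Alone and Control), the pooled effect of myelin (Full Tumor and Myelin Alone against Tumor without Myelin and Control), and their interaction. A gene was called at a Benjamini-Hochberg adjusted p under 0.05 over all tested genes. Over all 13414 tested genes the same fit called 0 in 6 of these and 0.0745% in the pooled tumor comparison. The unadjusted p was under 0.05 for 2 of the 10 genes in the pooled tumor comparison (5.78% of all tested genes) and for 1 each in Tumor without Myelin against Control (4.09%) and Full Tumor against Control (4.17%). It was under 0.05 for 0 of the 10 in Myelin Alone against Control (2.08% of all tested genes), Full Tumor against Tumor without Myelin (1.2%), the pooled myelin comparison (2.39%) and the interaction (1.14%). DESeq2 and limma-voom, run with group as the only term and not with the mn number, called 0 of the 10 in all comparisons. Libraries of the same mn number deviated together, so the fit was repeated with that number as a block. It then called 1 of the 10 genes in the pooled tumor comparison, where 2.25% of all tested genes were called (1.63% higher), and 0 in the other 6. Of all tested genes, those 6 called 0.0373% (Myelin Alone against Control), 0.745% (Tumor without Myelin against Control), 0.813% (Full Tumor against Control), 0.112% (pooled myelin) and 0% (Full Tumor against Tumor without Myelin, and the interaction). An unadjusted p under 0.05 was reached in that fit by 5 of the 10 genes for tumor material (12.7% of all tested genes), of which P2rx7, P2ry6, Entpd1 and Adora2b were higher with it and P2ry2 lower. The same count was 3 of 10 in Tumor without Myelin against Control (9.48% of all tested genes), 2 in Full Tumor against Control (9.83%), 1 in Full Tumor against Tumor without Myelin (3.88%), 1 for pooled myelin (7.13%), and 0 in Myelin Alone against Control (6.04%) and the interaction (2.93%). The median log2 fold change of the 10 genes for tumor material was 0.28 with the block, beside 0.00 over all tested genes.

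The ATP-gated channels differed in what set them apart. P2rx4 (chromosome 5, 122707544 to 122729738, plus strand, mm10), a channel that lysosomes and microglia are known for, was measured at 535, 466 and 473 CPM in Control (in the order 957, 958, 016, kept throughout). It was at 603, 455 and 359 CPM in Myelin Alone, 571, 580 and 345 in Tumor without Myelin, with 583, 548 and 310 in Full Tumor. The 957 libraries were the highest in 3 of the groups and the 016 libraries the lowest in 3. The mn number accounted for 74.4% of the variance of log2 P2rx4 levels and the group for 1.56%, beside medians of 42.6% and 17.1% over all tested genes. The pooled tumor difference was −0.01 ± 0.10 (log2 fold change ± SE, edgeR with the block, 95% interval −0.24 to 0.22) and the pooled myelin difference −0.08 ± 0.10 (−0.31 to 0.15).

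P2rx7 (chromosome 5, 122643911 to 122691432, plus strand), the channel that triggers inflammasome activation, lay at 35.2, 27.4 and 38.3 CPM in Control, against 40.3, 19.3 and 26.3 in Myelin Alone. It lay at 40.4, 37.1 and 56.4 CPM in Tumor without Myelin, against 36.2, 30.9 and 37.0 in Full Tumor. It was higher with tumor material in 5 of 6 same-numbered pairs, by 0.36 ± 0.14 with the block (edgeR, adjusted p = 0.290), and Full Tumor was below Tumor without Myelin in 3 of 3 pairs by 0.16, 0.26 and 0.61 log2 units, as were 14.1% of all tested genes. The group ranges overlapped. P2rx7 shares 119 exon bases with a microRNA gene on the same strand, Mir8115.

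Among the P2Y receptors, P2ry6 followed the tumor material most evenly. P2ry6 (chromosome 7, 100937630 to 100974649, minus strand), the UDP receptor, was at 307, 250 and 279 CPM in Control, against 299, 310 and 360 in Myelin Alone. It was at 346, 374 and 399 CPM in Tumor without Myelin, against 313, 367 and 425 in Full Tumor. All 6 libraries with tumor material were above the 3 Control libraries, by a narrow margin of 313 against 307 CPM. The lowest of the 6, at 313 CPM, was under the highest Myelin Alone library. The share of all tested genes that separate from Control in this way was not counted. Tumor material went with a difference of 0.30 ± 0.08 with the block (95% interval 0.13 to 0.47), higher in 6 of 6 pairs, with an adjusted p of 0.0785 in edgeR's quasi-likelihood test, which missed the threshold. The difference was 0.42 ± 0.11 for Tumor without Myelin against Control (edgeR, adjusted p = 0.154) and 0.39 ± 0.11 for Full Tumor against Control (adjusted p = 0.184); these comparisons share the Control libraries. An uncharacterised gene on the opposite strand, Gm44545, lies within P2ry6 with 0 shared exon bases.

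P2ry2 (chromosome 7, 100996568 to 101012866, minus strand), the receptor for ATP and UTP, went with myelin instead. Control libraries held 17.2, 19.1 and 23.7 CPM and Myelin Alone libraries 24.0, 19.9 and 33.6. Levels in Tumor without Myelin were 14.6, 9.94 and 18.8 CPM, against 26.0, 12.3 and 31.5 in Full Tumor. P2ry2 was higher with myelin in 6 of 6 pairs, at 0.49 ± 0.15 with the block (95% interval 0.15 to 0.83; edgeR, adjusted p = 0.428), and lower with tumor material in 5 of 6 pairs, at −0.36 ± 0.15 (adjusted p = 0.358). The group ranges overlapped, and neither difference passed the threshold.

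P2ry14 (chromosome 3, 59113855 to 59153618, minus strand), the receptor for UDP-sugars, varied more within groups than between them. It was at 9.22, 6.86 and 31.6 CPM in Control, against 13.5, 7.23 and 18.8 in Myelin Alone. It was at 23.3, 9.71 and 14.8 CPM in Tumor without Myelin, against 13.7, 15.2 and 16.1 in Full Tumor. The SD over the 3 libraries was 13.6 CPM in Control and 1.18 in Full Tumor, around means of 15.9 and 15.0 CPM. The group accounted for 4.58% of its variance, and the pooled tumor difference was 0.27 ± 0.29 with the block (95% interval −0.37 to 0.91). P2ry14 lies within Med12l, which is read from the opposite strand, and whether the counting used strand is not given in the sources used here.

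**Figure D2:**
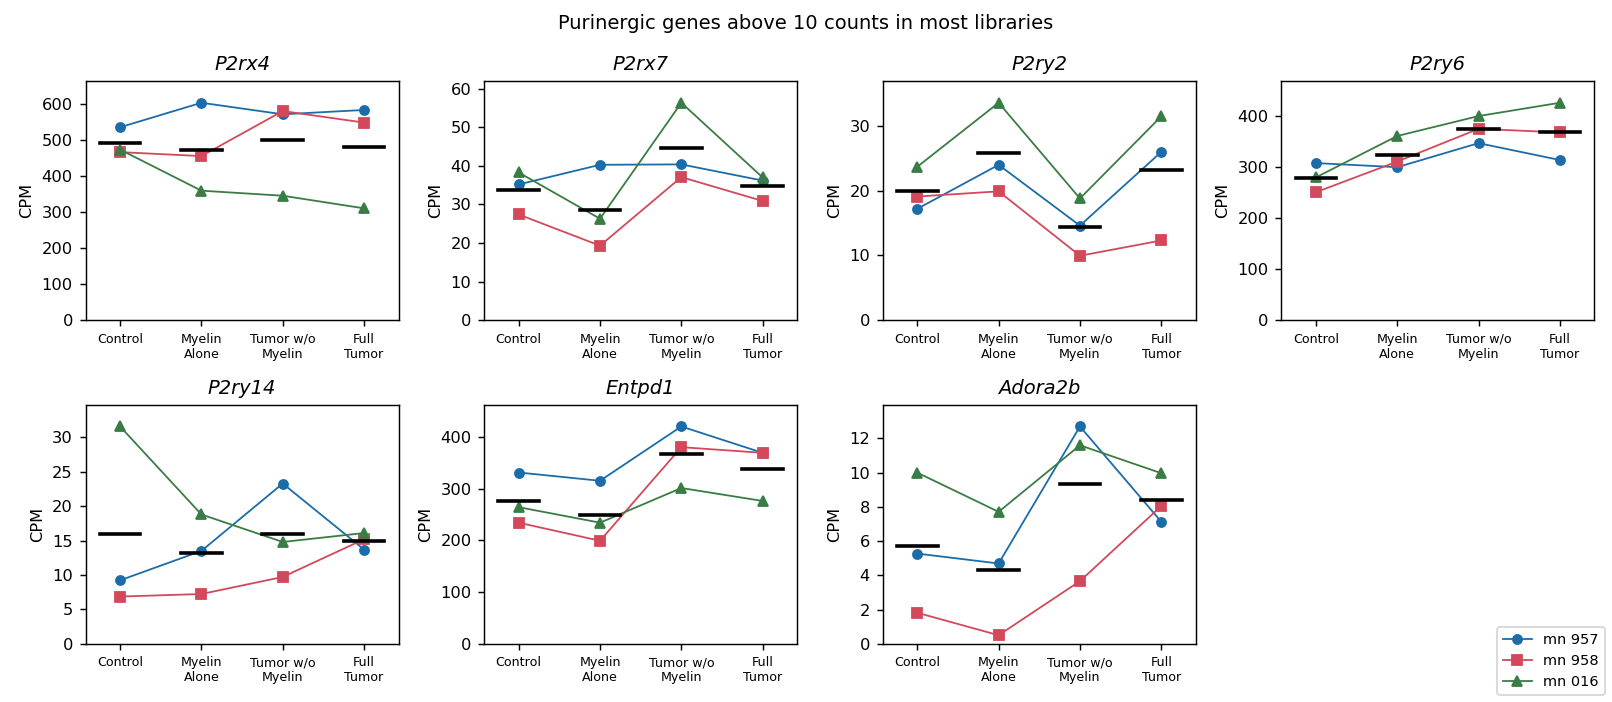
CPM of 7 of the 10 genes in each library (symbols and lines join libraries of the same mn number, black bars are group means of 3 libraries); Nt5e, Adora2a and Adora3, at 0 to 27 counts, are left out. Entpd1 and Adora2b are higher in Tumor without Myelin than in Control and in Full Tumor than in Myelin Alone for each mn number, P2ry2 is higher with myelin in each such pair, and the lines of P2rx4 are set apart by number.

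CD39 transcripts rose with tumor material when the mn number was blocked, and not with group as the only term. Entpd1 (chromosome 19, 40612366 to 40741602, plus strand) was measured at 331, 234 and 264 CPM in Control (mean 276 ± 49.4, SD, n = 3) and 315, 199 and 234 in Myelin Alone (249 ± 59.5). It was at 420, 380 and 301 CPM in Tumor without Myelin (367 ± 60.5), against 369, 369 and 276 in Full Tumor (338 ± 53.8). Within each mn number both libraries with tumor material were above both without it, while across numbers the groups overlapped: 276 CPM in Full Tumor 016 lay under 331 CPM in Control 957. The pooled difference was 0.43 ± 0.10 with the block (95% interval 0.22 to 0.64), higher in 6 of 6 pairs, and passed the threshold in edgeR's quasi-likelihood test (adjusted p = 0.0410); with group only it was 0.42 ± 0.15 (adjusted p = 0.529).

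The size of the Entpd1 difference varied with the mn number, and the call did not hold in most fits with 1 library fewer. Tumor without Myelin exceeded Control by 0.34, 0.70 and 0.19 log2 units and Full Tumor exceeded Myelin Alone by 0.23, 0.89 and 0.24. With the block, the call remained without Myelin Alone 957, Control 016 or Full Tumor 016 and was lost without each of the other 9 libraries, with adjusted p from 0.0358 to 0.127 and differences from 0.35 to 0.47. Without the 958 libraries the difference was 0.25 (adjusted p = 0.424), without the 957 libraries 0.50 (adjusted p = 0.172) and without the 016 libraries 0.54 (adjusted p = 0.0440). Myelin went with slightly lower Entpd1 in 6 of 6 pairs, at −0.13 ± 0.09 with the block (95% interval −0.34 to 0.07; edgeR, adjusted p = 0.874), and the interaction was 0.04 ± 0.19 (−0.37 to 0.46). Entpd1 contains 2 processed pseudogenes on its own strand, Gm16027 and Gm8783, with 0 shared exon bases.

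Sums of the macrophage, microglia and platelet marker lists were higher with tumor material in all same-numbered pairs, as Entpd1 and P2ry6 were, and dendritic cell sums were lower. Interferon-induced genes were higher with it in the 957 and 958 pairs, but lower in Tumor without Myelin 016 than in Control 016. The summed level of 12 interferon-induced genes was 1190 to 1550 CPM in the 957 and 958 libraries with tumor material and 143 to 185 CPM in those without it. In the 016 libraries it was 265 CPM in Tumor without Myelin and 158 in Full Tumor, beside 369 in Control and 148 in Myelin Alone. Differences with tumor material are given for Tumor without Myelin against Control, then Full Tumor against Myelin Alone. For Entpd1 they were 0.34 and 0.23 log2 units in the 957 pairs, 0.70 and 0.89 in 958, and 0.19 and 0.24 in 016. For P2ry6 they were 0.17 and 0.07 in the 957 pairs, 0.58 and 0.24 in 958, and 0.51 and 0.24 in 016. The 8 macrophage markers summed to 14900 to 18200 CPM with tumor material and 13300 to 15500 without. Microglia markers, of which 10 of 11 were counted, summed to 739 to 1140 CPM with tumor material and 406 to 686 without; of these Tmem119 lay at 0.604 to 28.4 CPM, Siglech was detected in 4 libraries and Slc2a5 in 1. Platelet markers, of which 4 of 5 were counted, summed to 59.3 to 140 CPM with tumor material and 21.6 to 84.5 without, and were higher with it in all same-numbered pairs; nearly all of this sum was Pf4, at 21.6 to 139 CPM, while Ppbp and Gp9 were each detected in 2 libraries and Itga2b in 6. Dendritic cell markers, of which 8 of 8 were counted, summed to 81.1 to 178 CPM with tumor material and 138 to 220 without, and were lower with it in all same-numbered pairs. Itgax, at 80.7 to 214 CPM, made up most of that sum, and Flt3 and Clec9a were detected in 2 libraries and 1. The part of these lists in the differences was not tested.

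Nt5e (chromosome 9, 88327197 to 88372092, plus strand), the next enzyme of the cascade, was near the floor. It had 1, 7 and 0 counts in Control, 0, 0 and 23 in Myelin Alone, 0, 0 and 18 in Tumor without Myelin, with 0, 12 and 25 in Full Tumor. It was at 0 in 6 of 12 libraries, and its highest level was 1.28 CPM, where Entpd1 was at least 199 CPM. No fold change is given for Nt5e, Adora2a or Adora3, whose libraries held at most 27 counts, and differences between groups in these genes were not detectable at this depth.

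**Figure D3:**
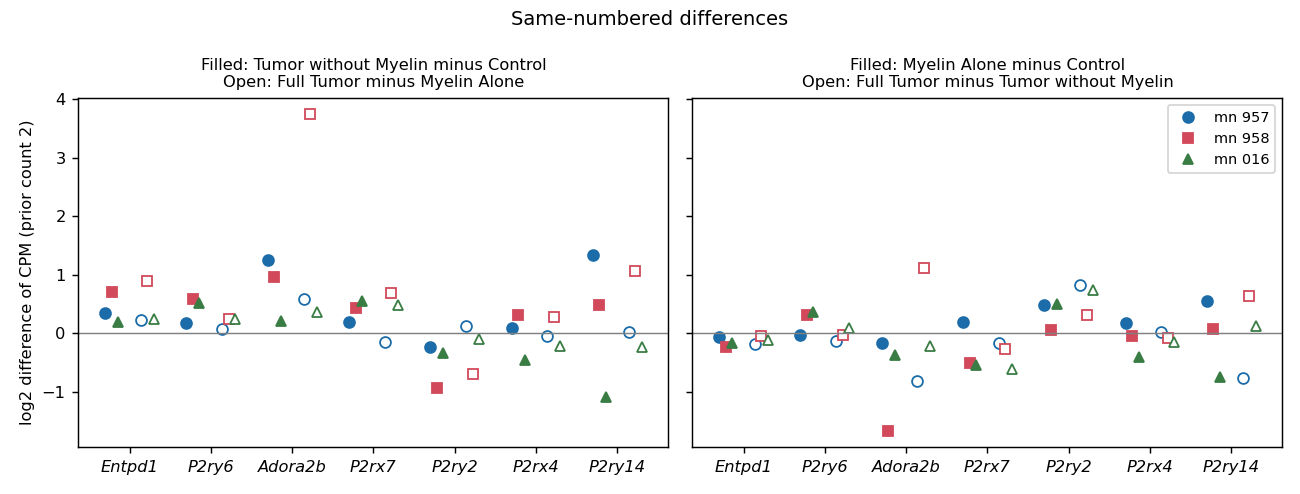
Same-numbered differences in log2 CPM (prior count 2) for 7 genes, for tumor material in the left panel and for myelin in the right, with filled and open symbols for the pair of groups named above each panel. The 6 tumor differences of Entpd1, P2ry6 and Adora2b are all above 0, and so are the 6 myelin differences of P2ry2.

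Adora2b was the adenosine receptor with the most counts, 9 to 247 per library. Adora2b (chromosome 11, 62248984 to 62266453, plus strand), the low-affinity receptor coupled to cyclic AMP, was at 5.27, 1.81 and 10.0 CPM in Control, against 4.69, 0.497 and 7.71 in Myelin Alone. It was at 12.7, 3.66 and 11.6 CPM in Tumor without Myelin, against 7.13, 8.05 and 9.97 in Full Tumor. The 958 libraries were the lowest in 3 groups, and across numbers the groups overlapped. The pooled tumor difference was 1.17 ± 0.38 with the block (95% interval 0.33 to 2.01), higher in 6 of 6 pairs, with an adjusted p of 0.192 in edgeR's test, which missed the threshold; with group only it was 0.84 ± 0.56 (adjusted p = 1). The largest of the 6 differences, 3.75 log2 units, came from the 958 pair of Full Tumor and Myelin Alone, and the other 5 were 0.21 to 1.25.

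Of the 10 genes, P2ry6, Entpd1 and Adora2b were higher with tumor material in all 6 same-numbered pairs, which 4.17% of all tested genes were. Entpd1 and Adora3 were lower and P2ry2 higher with myelin in all 6 pairs, and 5.92% of all tested genes went the same way in all 6. No gene of the 10 had all libraries with tumor material above or below all those without it, which 0.805% of all tested genes did. After the mean of each mn number was subtracted, log2 levels of Entpd1 and Adora2b correlated at r = 0.92 over the 12 libraries, and those of Entpd1 and P2ry2 at −0.78. These are descriptions over libraries that share their mn number and their group.

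The sequences just before the start sites of Entpd1 and Adora2b are shown because these genes had the closest pattern among the 10. They are RefSeq promoters on GRCm38.p6, 250 bases before the start and 5′ to 3′ in the gene's direction. Capitals mark matches to the motifs searched. RefSeq gave promoters for 8 of the 10 genes, 2 of them for Entpd1.
Entpd1 start site 1 (chr19:40612116-40612365): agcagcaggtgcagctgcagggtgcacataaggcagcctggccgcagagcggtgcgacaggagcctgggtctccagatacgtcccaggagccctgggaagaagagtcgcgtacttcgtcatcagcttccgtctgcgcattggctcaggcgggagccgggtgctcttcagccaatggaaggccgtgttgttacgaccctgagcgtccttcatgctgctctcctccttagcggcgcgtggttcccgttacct
Entpd1 start site 2 (chr19:40659520-40659769): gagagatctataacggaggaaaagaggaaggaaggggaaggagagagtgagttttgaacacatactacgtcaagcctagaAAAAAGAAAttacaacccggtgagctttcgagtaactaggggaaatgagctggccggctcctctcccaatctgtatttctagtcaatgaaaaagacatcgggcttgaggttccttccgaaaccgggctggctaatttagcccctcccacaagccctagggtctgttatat
Adora2b (chr11:62248734-62248983): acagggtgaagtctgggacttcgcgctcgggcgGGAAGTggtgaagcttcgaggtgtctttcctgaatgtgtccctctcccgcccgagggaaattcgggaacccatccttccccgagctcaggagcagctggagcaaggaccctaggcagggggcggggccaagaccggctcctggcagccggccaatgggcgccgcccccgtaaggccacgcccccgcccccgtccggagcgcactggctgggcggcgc
The motifs, searched on both strands, were TGACGTCA (the cyclic AMP response element), TTTCNNTTT (the core of the interferon-stimulated response element), ACGTG (the core of the hypoxia response element), GGAAGT (the core bound by PU.1) and GGNNNTTCC (like NF-kB sites). Of all 32851 windows of the same length, 1.55%, 9.37%, 16.6%, 19.7% and 15.7% held them, in that order. The second Entpd1 window held TTTCNNTTT on the minus strand, 170 bases before the start, the first Entpd1 window held 0 of the 5 motifs, and the Adora2b window held GGAAGT 217 bases before the start. A match is a description of letters and not evidence of binding.

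The remaining adenosine receptors had few counts, 0 to 27 per library for Adora2a and 4 to 27 for Adora3. Adora2a (chromosome 10, 75316877 to 75334784, plus strand), the high-affinity receptor coupled to cyclic AMP, had 12, 0 and 27 counts in Control, 14, 0 and 8 in Myelin Alone, 8, 13 and 0 in Tumor without Myelin, with 0, 0 and 3 in Full Tumor. Adora3 (chromosome 3, 105870858 to 105908926, plus strand), which couples to inhibitory G proteins, had 9, 27 and 20 counts in Control, 7, 19 and 8 in Myelin Alone, 11, 9 and 24 in Tumor without Myelin, with 7, 4 and 23 in Full Tumor. Adora2a was at 0 in 5 of 12 libraries spread over all groups, and its 3 Full Tumor libraries were at or under 3 counts. Adora3 was detected in all 12 libraries and was lower with myelin in 6 of 6 pairs, at 4 to 27 counts per library (edgeR with the block, adjusted p = 0.906 for pooled myelin). Adora3 shares 779 exon bases, 20.9% of its exon length, with Tmigd3 on the same strand, so its counts are uncertain.

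**Figure D4:**
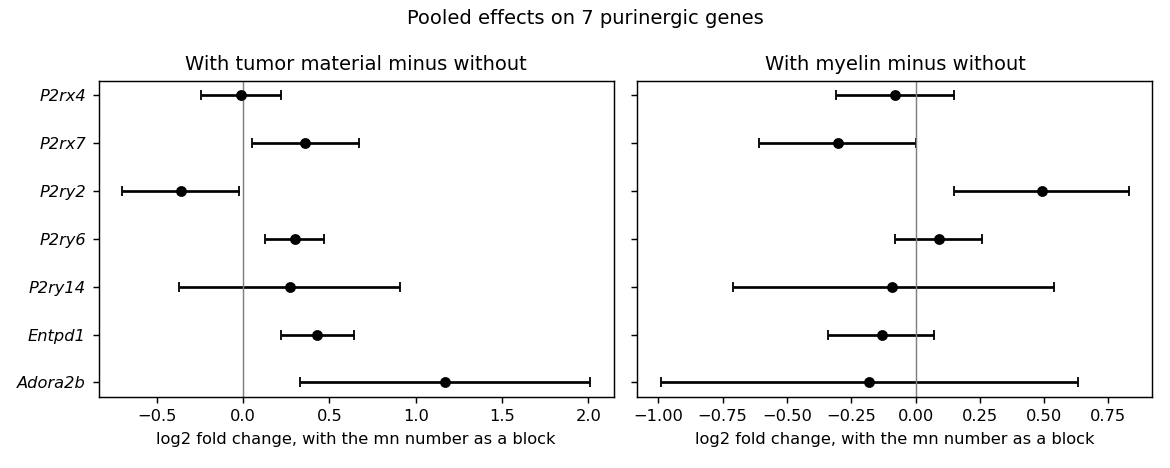
Pooled log2 fold changes with the mn number as a block for 7 genes, for tumor material (left) and myelin (right); bars are 95% intervals. The Entpd1 interval for tumor material runs from 0.22 to 0.64, and the Adora2b interval from 0.33 to 2.01.

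Other genes of the pathway were taken from 7 lists of 79 genes, of which 63 were tested. With group only, edgeR called 0 of them in every comparison. With the block, the pooled tumor comparison called 1 of 5 other nucleotide receptors, 1 of 7 other nucleotide hydrolases and 2 of 17 genes of cyclic AMP signalling, all higher, where 2.25% of all tested genes were called and 1.63% were called higher. It called 0 of 9 genes of adenosine uptake and breakdown, 0 of 6 of nucleotide release, 0 of 9 of the inflammasome and 0 of 10 of Gq and Gi signalling. Median log2 fold changes of these lists ran from −0.01 to 0.30, beside 0.00 over all tested genes. In the 4 comparisons between groups, 1 gene was called, P2ry13 in Tumor without Myelin against Control, where 0.745% of all tested genes were called.

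P2ry13, an ADP receptor, was at 0.586, 0.220 and 2.89 CPM in Control, 1.79, 1.82 and 3.11 in Myelin Alone, 9.97, 6.23 and 10.9 in Tumor without Myelin, with 4.86, 1.03 and 6.57 in Full Tumor. All Tumor without Myelin libraries were above all Control and Myelin Alone libraries, and the share of all tested genes that separate in this way was not counted. With the block, P2ry13 was higher in Tumor without Myelin than in Control by 3.30 ± 0.59 (edgeR, adjusted p = 0.0283) and with tumor material overall by 1.97 ± 0.40 (adjusted p = 0.0269). P2ry12, the related ADP receptor, reached at most 3.58 CPM and did not pass the threshold, at 2.02 ± 0.78 for tumor material (adjusted p = 0.287). Microglia markers, among which both genes are counted, moved in the same direction, as given above, and their part was not tested.

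Enpp1, a surface enzyme that cleaves ATP to AMP and pyrophosphate, was at 18.1, 12.6 and 25.7 CPM in Control, 35.6, 14.5 and 33.7 in Myelin Alone, 41.1, 22.9 and 57.2 in Tumor without Myelin, with 28.5, 32.4 and 57.8 in Full Tumor. It was higher with tumor material in 5 of 6 pairs, the exception being Full Tumor against Myelin Alone 957, by 0.81 ± 0.16 (edgeR with the block, adjusted p = 0.0279). Like Entpd1, it encodes an ATP-hydrolysing enzyme on the cell surface.

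Nr4a1 and Thbs1 were the called genes of the cyclic AMP list. Nr4a1, an immediate-early nuclear receptor, was at 12.7, 13 and 3.92 CPM in Control, against 11.1, 4.25 and 1.72 in Myelin Alone, and at 64.6, 54.2 and 4.98 CPM in Tumor without Myelin, against 48.9, 42.6 and 7.04 in Full Tumor. The 957 and 958 libraries with tumor material stood far above the rest, and the pooled difference was 2.08 ± 0.26 (edgeR with the block, adjusted p = 0.00218). Thbs1, a matrix glycoprotein, was at 9.38, 7.19 and 17.2 CPM in Control, 3.95, 3.53 and 5.55 in Myelin Alone, 20.8, 14.3 and 10.9 in Tumor without Myelin, with 29.1, 26.5 and 12.1 in Full Tumor, with a pooled difference of 1.41 ± 0.30 (adjusted p = 0.0335).

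These pathway calls also depended on single libraries, except that of Nr4a1, which remained without each of the 12 libraries in turn. With the block, P2ry13 kept its call against Control in 7 of 12 such fits, being lost when any Control or Tumor without Myelin library other than Control 016 was left out, and kept its pooled call in 4, without Full Tumor 958, Myelin Alone 958, Control 016 or Tumor without Myelin 016. Enpp1 kept its call without Full Tumor 957, Myelin Alone 957 or Tumor without Myelin 958, and Thbs1 without any 016 library, and both lost it without each of the other libraries. Adjusted p ranged up to 0.165 and 0.0945 for P2ry13, 0.0931 for Enpp1 and 0.122 for Thbs1. Without all 016 libraries the pooled difference was 2.39 for P2ry13, 2.42 for Nr4a1 and 1.99 for Thbs1, with adjusted p of 0.0312, 0.000287 and 3e-04. Nr4a1 was not called without the 957 libraries (adjusted p = 0.0817) or the 958 libraries (0.0568).

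**Figure D5:**
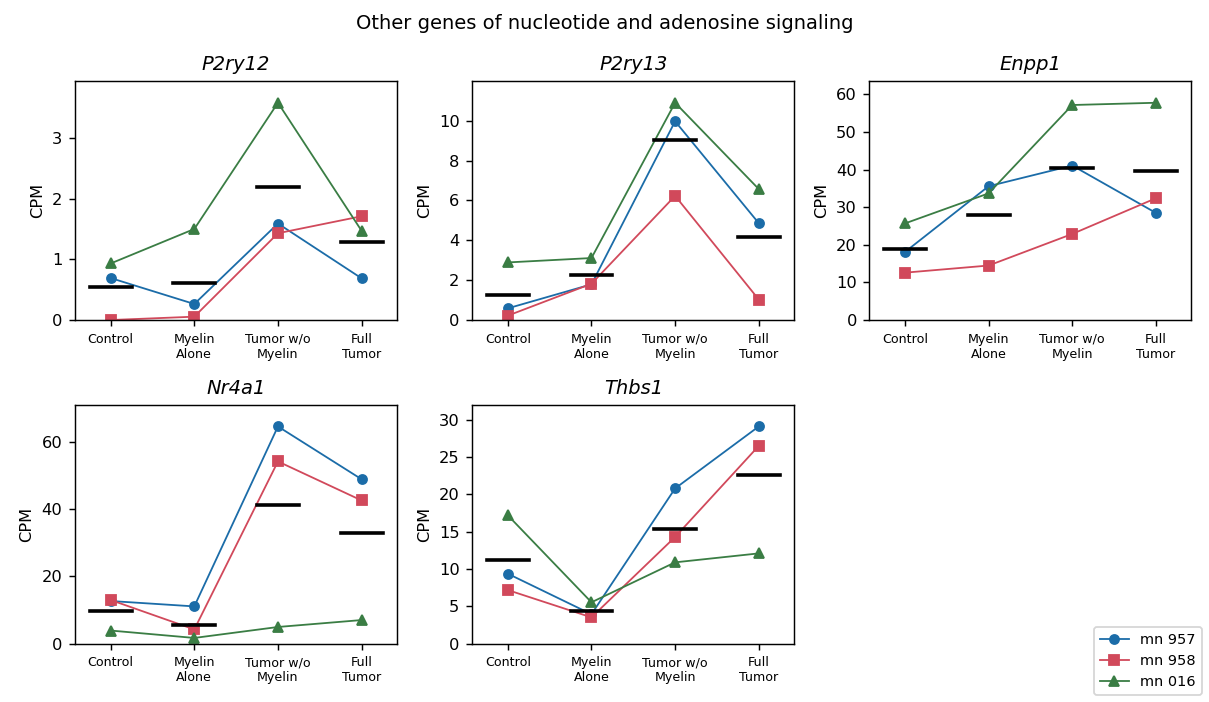
CPM of P2ry12, P2ry13, Enpp1, Nr4a1 and Thbs1 in each library, with symbols and lines by mn number and black bars for group means of 3 libraries. Nr4a1 in the 016 libraries stays at 1.72 to 7.04 CPM in all groups, while the 957 and 958 libraries with tumor material lie at 42.6 to 64.6 CPM.

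Across genes with a mean of at least 10 CPM, the patterns most like those of the 10 genes were ranked by the correlation of log2 CPM over 12 libraries after the mean of each mn number was subtracted. Entpd1 was closest to Cmpk2 (r = 0.961), Gm5431 (0.959) and Pik3ap1 (0.945), and Adora2b to Pik3ap1 (0.950), Efcab14 (0.929) and Decr2 (0.928), so that Pik3ap1 was on both lists. P2ry6 was closest to Arid5b (0.964), P2rx4 to Ccrl2 (0.939), P2rx7 to Itpk1 (0.935), P2ry14 to Txndc12 (0.915) and P2ry2 to Fadd (0.901). For the genes near the floor, Adora3 was closest to Ssrp1 (0.964), Nt5e to Ola1 (0.908) and Adora2a to Tsc22d3 (0.879). Each of these is the highest of 8255 or 8256 correlations over libraries that share groups and mn numbers, and is a description.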

How the data were processed

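The authors deposited raw counts per gene for 12 libraries, 4 groups of 3, with mm10 gene positions (build named in the submitters' processing notes). Aligner, counter and strandedness: not given in the sources used here. Counts were tested with edgeR 4.0.16 (R 4.3.3): TMM factors, filterByExpr (13414 of 24728 genes, 99.9% of counts), glmQLFit and glmQLFTest on all 12 libraries with group as the only term, two-sided p adjusted by Benjamini-Hochberg over tested genes at 0.05. All 10 genes passed the filter. Whether the mn number pairs libraries was checked before calls were compared: deviations from group means correlated at r above 0.1 across genes in 18 of 18 same-numbered pairs (0.120 to 0.631). It was then added as a block. The SE of a log2 fold change is its size divided by the root of the F statistic. RPKM used exon lengths of GENCODE M21. No libraries were duplicates. The procedure was tested on simulated data. DESeq2 1.42.0, limma-voom 3.58.1, other scalings and left-out libraries were alternatives. The genes and lists were chosen with earlier results of these data known. Named genes were all 10, P2ry12, P2ry13, the pathway genes called with the block (at most 6 per list), and for each of the 10 the 3 genes of most similar pattern.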

Additional observations from a re-analysis of the deposited data

Results flagged for a closer look

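The same-numbered differences of P2ry13 with myelin had opposite signs with and without tumor material. P2ry13 was higher in Myelin Alone than in Control in 3 of 3 same-numbered pairs and lower in Full Tumor than in Tumor without Myelin in 3 of 3. The interaction was −2.67 ± 0.80 on the log2 scale in the fit with mn numbers blocked (edgeR, adjusted p = 1). Thbs1 went the other way, lower with myelin in 3 of 3 pairs without tumor material and higher in 3 of 3 with it. Its interaction was 1.94 ± 0.57 (edgeR with the block, adjusted p = 1). Neither interaction passed the adjusted threshold, and 2.93% of all tested genes had an unadjusted p under 0.05 for it. The share of all tested genes with such opposed pairs was not counted. Of all tested genes, 14.1% were lower in Full Tumor than in Tumor without Myelin in every same-numbered pair.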

How the results depend on the processing

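Over 38 alternative settings, 2611 values of the 10 genes were recomputed, of which 8 were called, all higher with tumor material, and 307 changed sign without being called in either fit. The number of the 10 genes called was above 0 in 7 of 263 recomputed counts, all in the pooled tumor comparison and all with the mn number as a replicate block. It was 1 with the replicate block, 1 with the replicate block and library totals alone, and 1 with the replicate block without the 016 libraries. With the block and 1 library or 1 number left out, it ran from 0 to 2: Entpd1 as given above, P2rx7 without Myelin Alone 957 (0.51, edgeR, adjusted p = 0.0415) and P2ry6 without Control 957 (0.37, adjusted p = 0.0250). Without the block it was 0 in every such fit. The block moved the calls over all tested genes from 0 to 5 (Myelin Alone against Control), 0 to 100 (Tumor without Myelin against Control), 0 to 109 (Full Tumor against Control), 10 to 302 (pooled tumor) and 0 to 15 (pooled myelin), and left 0 in the other 2 comparisons. The fit with the block has 6 residual degrees of freedom and that without it 8. Depth limits Nt5e, Adora2a and Adora3, whose libraries hold 0 to 27 counts.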
